A study of Mus musculus with 12 samples.

Results

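The 40 genes described here are the cell cycle and proliferation genes of the mouse retina after optic nerve crush (ONC): 5 genes of G1 entry and S-phase commitment, 1 inhibitor, 9 genes of origin licensing and the replicative helicase, 5 of DNA synthesis, 4 cyclin and kinase genes of S, G2 and M phase, 12 mitotic kinase, spindle and checkpoint genes, 2 of the anaphase-promoting complex and 2 markers of cycling cells. They were chosen by name as S-phase and mitosis genes, not by a measured value, out of 25655 genes counted. Earlier results of these data were known when the choice was made. All of the mice were C57BL/6J wild-type animals, 8 to 10 weeks old, whose left optic nerve was crushed, and the injured eye then received 1 intravitreal injection. The 4 groups of 3 samples differed in what was injected: PBS, which served as the control, fluvastatin, a statin and so a blocker of HMG-CoA reductase, matrix-bound nanovesicles (MBV), which are vesicles recovered from the extracellular matrix of pig urinary bladder, or both agents together. RNA of the whole retina was sequenced 2 days after ONC, so every cell of the tissue contributes, and fewer cells of a type cannot be told apart from less RNA per cell. No uninjured retina was analysed here, so each value is relative to a crushed retina given PBS.

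A dividing cell passes through ordered stages. D-type cyclins open G1, E2F factors and cyclin E commit the cell to S phase, the MCM helicase is loaded onto origins by Cdc6 and Cdt1 and fires with Cdc45, and Pcna holds the polymerases on DNA. Cyclin B and Cdk1 then drive mitosis, in which Aurora and Polo kinases, kinesins and centromere proteins move the chromosomes until Cdc20 and Ube2c help to end it. Cdkn1a, the p21 inhibitor and a classic p53 target, blocks the cyclin-dependent kinases. Retinal neurons of adult mice have left the cycle, while Müller glia can re-enter it in part after injury, and microglia and blood-derived leukocytes can divide, so transcripts of these genes in the adult retina are usually scarce. Some of the same proteins, Pcna and ribonucleotide reductase among them, also serve DNA repair in cells that do not divide.

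Promoters of S-phase genes often carry E2F sites and those of mitotic genes the CHR element. Stretches of some of the genes discussed below are shown here with those letters marked. Cdt1, which has an E2F site and rose with MBV, is not shown, nor are Cdkn1a, Ccne2 and Ccnd1, which also changed with it. Windows of 300 bases around the RefSeq start (250 before and 50 after it, build GRCm38.p6) were held for 32 of the 40 genes, 34 windows in all. E2F sites (TTTCCCGC, TTTGGCGC, TTTCGCGC or TTTGCCGC, either strand) lay in 7 of the 34 windows, against 2.26% of all 32851 windows. Of these 7 windows, 6 belonged to licensing and helicase genes (Cdc6, Cdt1, Mcm3, Mcm5, Mcm6 and Mcm7) and 1 to Cdk1. The CHR, or cell cycle genes homology region (TTTGAA or TTCGAA, either strand), lay in 16 of 34 windows, against 19.2% of all windows. It was found in 7 of 9 windows of mitotic kinase, spindle and checkpoint genes and in both windows of the cycling-cell markers, and in none of the 5 windows of DNA synthesis genes. The CCAAT box (CCAAT, either strand) lay in 25 of 34 windows, against 37.4% of all windows. These motifs do not contain one another, although 2 E2F sites can share letters on opposite strands, as in Mcm5. A match describes letters only and says nothing of a bound factor. The Pcna and Mki67 stretches, although before the RefSeq start, lie wholly within annotated exon sequence of their genes in GENCODE vM39, and the other 4 stretches lie outside the exons of their genes. The stretches below were found letter for letter in GRCm39, are written 5′ to 3′ on the strand of the gene, and have the motif letters in capitals. Mcm5 and Rrm1 are S-phase genes that were lower with MBV, Mki67 is a cycling-cell marker that was higher with MBV, and Pcna was lower with either agent, while Top2a and Cdk1 passed the test in no comparison.
Mcm5 (chr8:75835977-75836136, plus strand, from 160 bases before the start): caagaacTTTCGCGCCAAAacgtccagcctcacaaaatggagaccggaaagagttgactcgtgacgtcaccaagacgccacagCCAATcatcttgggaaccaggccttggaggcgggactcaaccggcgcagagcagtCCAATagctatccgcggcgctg
Rrm1 (chr7:102090782-102090889, plus strand, from 120 bases before the start): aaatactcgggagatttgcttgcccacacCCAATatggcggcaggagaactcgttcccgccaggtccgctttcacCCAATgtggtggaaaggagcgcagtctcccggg
Pcna (chr2:132095171-132095200, minus strand, from 100 bases before the start): aaccacgggtacgATTGGtccttgaggaga
Mki67 (chr7:135318201-135318230, minus strand, from 122 bases before the start): ccagaaTTTGAAccgccgttttggTTTGAA
Top2a (chr11:98915066-98915255, minus strand, from 240 bases before the start): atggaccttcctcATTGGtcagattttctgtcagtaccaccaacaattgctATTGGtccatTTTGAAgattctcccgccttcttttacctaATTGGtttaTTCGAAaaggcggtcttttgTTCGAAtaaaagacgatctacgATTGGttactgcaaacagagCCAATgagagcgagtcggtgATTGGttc
Cdk1 (chr10:69188773-69188962, minus strand, from 220 bases before the start): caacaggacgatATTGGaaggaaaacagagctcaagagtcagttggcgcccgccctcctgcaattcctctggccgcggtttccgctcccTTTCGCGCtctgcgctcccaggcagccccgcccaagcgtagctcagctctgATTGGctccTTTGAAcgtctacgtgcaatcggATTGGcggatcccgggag
Top2a held 6 CCAAT boxes and 3 CHR letters in this stretch, Cdk1 held an E2F site and a CHR, and the Rrm1 stretch held CCAAT boxes alone.

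Read counts could be tied to a named library for 9 libraries (PBS, fluvastatin and MBV, 3 each), with 21349516 to 30992040 counts on genes per library. The count columns of the combined treatment name no library and were not used, so that group appears below only through a group mean given by the authors. In the library numbers of the labels, PBS and the combined treatment form 1 set and fluvastatin and MBV the other, so a difference between a single agent and PBS cannot be told apart from a difference between the sets. MBV against fluvastatin lies within 1 set. Markers of rods, cones and bipolar cells were abundant in every library, with a summed level of 26643 to 41765 CPM (counts scaled to a common library size). Other tissue markers moved with the groups, and their part in the results below was not tested. Of 5 pigment cell markers, 4 fell with fluvastatin and 4 with MBV, and their summed level was 54.3 to 72.3 CPM in PBS, 19.7 to 23.6 with fluvastatin and 11.1 to 28.4 with MBV. All 5 lens markers rose with MBV, from a summed 0.608 to 3.80 CPM in PBS to 42.6 to 110.0 CPM. Of 7 rod, cone and bipolar markers, 2 fell with fluvastatin and 4 with MBV. Monocyte and macrophage markers summed to 10.7 to 23.6 CPM in PBS and 7.0 to 10.3 CPM with fluvastatin, and with MBV to 7.86, 13.6 and, in replicate 3, 80.4 CPM. Neutrophil markers were near 0, at most 2.01 CPM in sum, with Ly6g at 0 in all 9 libraries. Of the other marker lists, 2 of 5 ganglion cell markers rose with fluvastatin, 1 of 6 endothelial markers rose and 3 of 4 surface epithelium markers fell with MBV, 1 of 3 erythroid markers rose with fluvastatin and 2 with MBV, and 1 of 8 microglia markers fell with each agent.

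In the crushed retina given PBS, the cell cycle genes spanned more than 2 orders of magnitude. Per kilobase of annotated exon, Pcna was highest at 22.5 CPM per kb. Ccnd1 (7.86), the spindle checkpoint kinase gene Bub1b (7.25), Ccna2 (6.72) and Rrm1 (3.51) followed. This ranking rests on GENCODE vM39 exon lengths, and only 4 of the 40 genes have the same ends there and in the authors' tables. In the authors' own length-scaled PBS means (RPKM), Pcna was at 12.1, and Rrm1 (3.44) lay above Bub1b (3.11) and Ccna2 (2.56). The order of Rrm1, Bub1b and Ccna2 was thus not settled. The place of Ccnd1 was not settled either, since its PBS mean in RPKM is known only to be at most 4.06. The lowest 5 were Hmmr at 0.0536, Cdk1 at 0.0606, Aurkb at 0.0675, Bub1 at 0.0721 and Ube2c at 0.0841 CPM per kb, all genes of mitosis, although Bub1b, Ccna2 and Cenpe (0.772) ranked far higher and the S-phase genes Rrm2 (0.147) and Cdc6 (0.138) lay not far above them. The median was 1.44 CPM per kb for the 5 DNA synthesis genes, 0.696 for the 9 licensing and helicase genes, 0.265 for the 12 mitotic kinase and spindle genes and 0.245 for Mki67 and Top2a. Many neighbours in this order overlapped: Cdk1 (0.266 to 0.487 CPM in the 3 PBS libraries) and Hmmr (0.162 to 0.494 CPM), for example, could not be ordered. All 40 genes had counts in every library and entered every test, but the counts were low for most. The mean over the 9 libraries was under 100 counts for 27 genes and under 20 counts for 9, and single values ran from 3 to 1726 counts. Exon sequence is shared with another annotated gene by 14 of the 40, 13 of them with a gene on the opposite strand, and whether the counting used strand is not given in the sources used here, so reads of these pairs may be mixed. Among the highly ranked genes, Ccnd1 shares 2315 exon bases with LTO1, Ccne2 shares 852 with Ints8 and Ccna2 shares 714 with Exosc9.

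**Figure D1:**
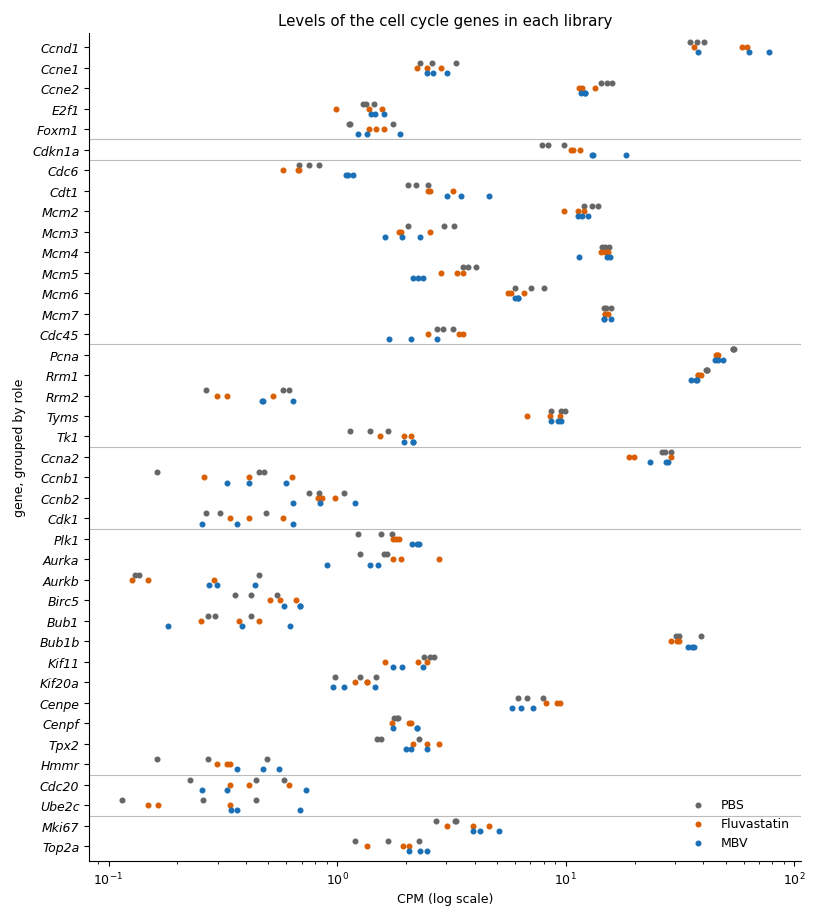
Level of each of the 40 cell cycle genes in CPM (log axis), with 1 point per library and genes grouped by role (grey lines). Ccnd1, Ccna2, Bub1b, Pcna and Rrm1 lie near 20 CPM or above in nearly every library, while Cdk1, Aurkb, Hmmr and Ube2c stay under 1 CPM.

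With fluvastatin, few of these genes changed. Against PBS, Pcna and Ccne2 fell and Cdkn1a rose, each by less than 1.3-fold, and neither Mki67 nor Top2a passed the test. A gene is called changed here at a false discovery rate (FDR, the Benjamini-Hochberg adjusted p of edgeR's quasi-likelihood test over all genes) under 0.05. The 3 called genes are 7.5% of the 40, and 19.6% of all 18818 genes tested were called in this comparison (9.36% higher and 10.2% lower). The 3 fluvastatin libraries lay wholly above or below the 3 PBS libraries for 10 of the 40, or 25%, against 36.6% of all genes. The median log2 fold change of the 40 was 0.03, against -0.01 over all genes, and 20 values lay above 0 and 20 below. Depth bears on these counts. Of the 13 genes with a mean of 100 counts or more, 3 were called (23.1%, against 28.0% of all genes at that depth), and of the 27 below it none was (against 4.19%). The 4.19% includes genes with as little as 1 count in 1 library, while these 27 had counts in every library. It is therefore not a share at like depth. With a filter of at least 10 counts in 2 libraries, 24.5% of 15377 genes were called, and 3 of the 37 cell cycle genes that passed it. Leaving out PBS replicate 1 or fluvastatin replicate 2 leaves Pcna as the only call.

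With MBV, 8 of the 40 genes changed against PBS, 4 up and 4 down. Cdkn1a, Cdt1, Ccnd1 and Mki67 rose by 1.42-fold to 1.70-fold, and Mcm5, Ccne2, Pcna and Rrm1 fell by 1.14-fold to 1.68-fold. This is 20% of the genes, and 26.1% of all 18897 genes tested were called in this comparison (12% higher and 14.1% lower). Groups did not overlap for 12 of the 40, or 30%, against 41.3% of all genes. The median log2 fold change was 0.08, against 0.01 over all genes, with 22 values above 0 and 18 below. At 100 counts or more, 5 of 13 genes were called (38.5%, against 36.8% of all genes), and under 100 counts 3 of 27 (11.1%, against 6.86%). The 6.86% again includes genes with almost no counts and is not a share at like depth. With a filter of at least 10 counts in 2 libraries, 33.1% of 15414 genes were called, and 7 of the 40. The 3 genes called with fluvastatin were also among the 8 called with MBV, but both comparisons use the same PBS libraries. Cdkn1a, Mcm5, Ccne2 and Pcna were called in all 12 alternative fits, and the other 4 were not. Leaving out PBS replicate 1, PBS replicate 2 or MBV replicate 1 leaves these 4 calls, and leaving out PBS replicate 3 or MBV replicate 2 leaves 5.

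**Figure D2:**
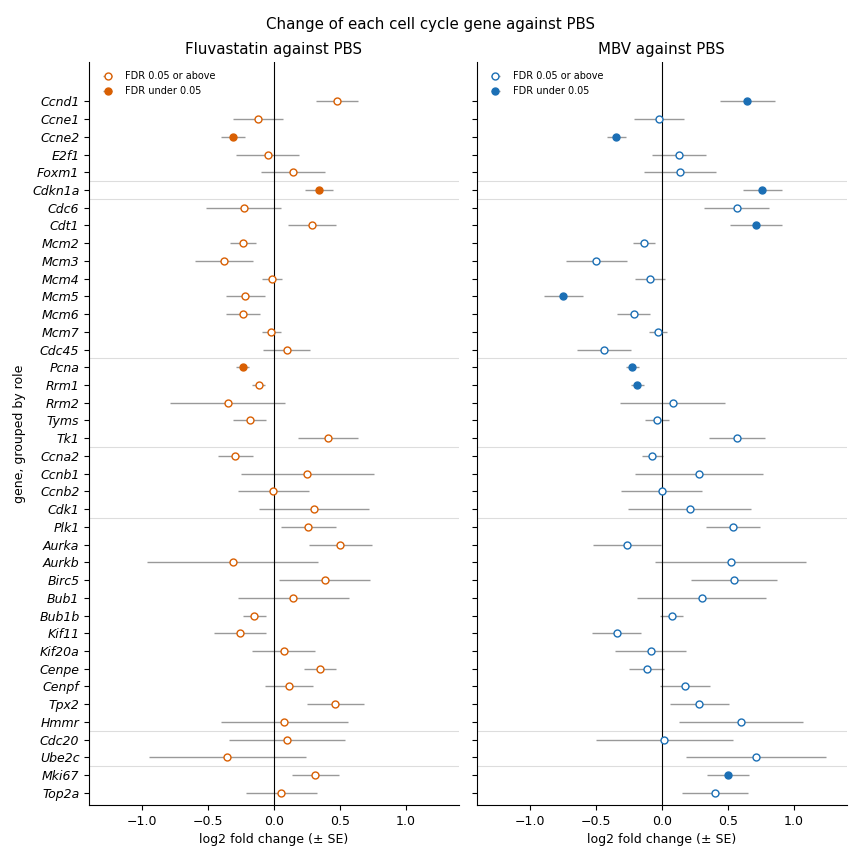
Log2 fold change against PBS of each cell cycle gene with fluvastatin (left) and MBV (right), with bars of 1 SE from edgeR and filled points for an FDR under 0.05 (n = 3 libraries per group). Filled points number 3 on the left and 8 on the right, lie on both sides of 0, and the longest bars belong to genes with few counts such as Aurkb and Ube2c.

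Between MBV and fluvastatin, the comparison within 1 library set, none of the 40 genes was called by edgeR's quasi-likelihood test, and none by DESeq2. At an unadjusted p under 0.05 in this test there were 7 of the 40, against 2001 of the 18721 genes tested. By FDR, 11 of the 18721 (0.0588%) were called. The smallest edgeR FDR among the 40 was 0.262, for Bub1b. Groups did not overlap for 10 of the 40, or 25%, against 16.4% of all genes. The differences with the smallest p-values were those of Bub1b, at log2 0.23 ± 0.06 (SE) higher with MBV, and of Cenpe, the motor protein of the kinetochore, at -0.46 ± 0.12. Cdkn1a differed by 0.43 ± 0.14 and Mcm5 by -0.52 ± 0.17 in the direction of MBV minus fluvastatin, with edgeR FDRs of 0.345 and 0.366. The differences between the agents were thus not shown for any single gene, and with these standard errors they are not shown to be 0 either.

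Cyclin D1 (Ccnd1, chr7:144483668-144493662 in GRCm39), which partners Cdk4 and Cdk6 in G1, was the G1 gene with the widest spread. It stood at 37.5, 35.0 and 40.3 CPM in the 3 PBS libraries, at 36.3, 59.0 and 61.9 CPM with fluvastatin and at 63.1, 77.2 and 37.7 CPM with MBV. Fluvastatin replicate 1 and MBV replicate 3 lay at the PBS level, and the other 4 treated libraries lay above every PBS library. The log2 fold change was 0.48 ± 0.16 with fluvastatin (edgeR FDR = 0.060) and 0.65 ± 0.21 with MBV (edgeR FDR = 0.0461), and the MBV call was lost in 10 of 12 alternative fits. Without fluvastatin replicate 1 the log2 value was 0.69 (edgeR FDR = 2.4e-05), and without MBV replicate 3 it was 0.89 (edgeR FDR = 2.4e-05). The same 2 libraries stood apart from the other treated ones in Vim and Glul, 2 of the 6 Müller glia markers listed. These 2 were picked to stand beside Ccnd1, and the rest of the list is not given by library. Vim, the filament gene of glia, was at 142 CPM in fluvastatin replicate 1 and 134 CPM in MBV replicate 3, against 205 to 322 CPM in the other 4 treated libraries and 144 to 178 CPM in PBS. Glul, glutamine synthetase, was at 1997 and 1965 CPM in these 2 libraries, against 598 to 1120 CPM in the other 4 and 1915 to 2592 CPM in PBS. Of the 6 Müller glia markers, 4 were lower with fluvastatin and 2 with MBV at an FDR under 0.05 and none was higher, with a summed level of 2770 to 3383 CPM in PBS, 1665 to 2733 with fluvastatin and 1487 to 2645 with MBV. Their part in the Ccnd1 values was not tested. LTO1 shares exon bases with Ccnd1 on the other strand. Its log2 fold changes were -0.04 ± 0.07 with fluvastatin and -0.21 ± 0.07 with MBV, neither past the threshold. Mixing of reads between the 2 genes was not tested.

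**Figure D3:**
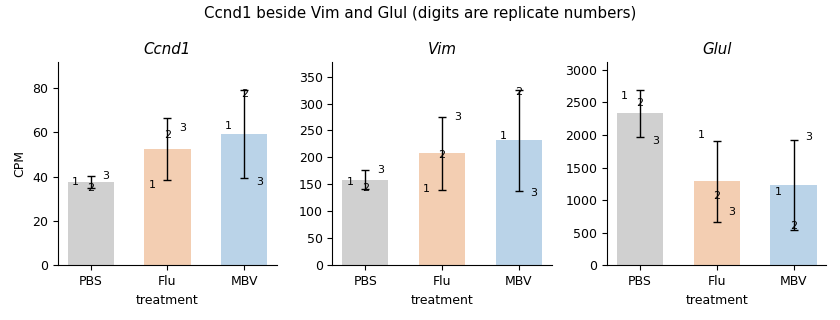
CPM of Ccnd1 and of Vim and Glul, picked from the Müller glia list, by treatment (bars are means, error bars SD, n = 3, and digits give the replicate). Fluvastatin replicate 1 and MBV replicate 3 lie at or near the PBS level in all 3 genes, at 36.3 and 37.7 CPM for Ccnd1.

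Cyclin E2 (Ccne2, chr4:11191351-11204779), a cyclin that activates Cdk2 at the start of S phase, was lower with both agents. It measured 15.2, 14.3 and 16.0 CPM in PBS, 11.4, 11.8 and 13.4 CPM with fluvastatin and 11.7, 12.1 and 12.2 CPM with MBV. No treated library reached the lowest PBS library. The log2 fold change was -0.31 ± 0.09 with fluvastatin (edgeR FDR = 0.0328, lost in 4 of 12 alternative fits) and -0.34 ± 0.07 with MBV (edgeR FDR = 0.00823). Ints8, which shares exon bases with it, was at -0.15 ± 0.05 and -0.11 ± 0.05, neither past the threshold. Its relative Ccne1 had values of -0.12 ± 0.19 and -0.02 ± 0.19, and the transcription factors E2f1 and Foxm1 lay between -0.05 and 0.15 in both comparisons.

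Cdkn1a (chr17:29309950-29319701), the p21 inhibitor, was the member with the smallest FDR with MBV. It measured 7.83, 8.32 and 9.84 CPM in PBS, 10.6, 11.6 and 10.7 CPM with fluvastatin and 13.01, 18.32 and 13.13 CPM with MBV. The 3 groups did not overlap one another. The log2 fold change was 0.34 ± 0.10 with fluvastatin (1.27-fold, edgeR FDR = 0.045) and 0.76 ± 0.15 with MBV (1.70-fold, edgeR FDR = 0.00545). The fluvastatin call was lost in 7 of 12 alternative fits, while the MBV call held in all 12, with log2 values of 0.59 to 0.86. A transcript model on the other strand shares 504 exon bases with Cdkn1a.

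The licensing and helicase genes moved in both directions with MBV. Mcm5 (chr8:75836197-75855067), a subunit of the MCM helicase, measured 3.54, 3.72 and 4.06 CPM in PBS, 2.84, 3.33 and 3.56 CPM with fluvastatin and 2.16, 2.37 and 2.27 CPM with MBV. The MBV libraries lay below all others, while the highest fluvastatin library lay within the PBS range. The log2 fold change was -0.75 ± 0.15 with MBV (1.68-fold lower, edgeR FDR = 0.00711) and -0.22 ± 0.15 with fluvastatin (edgeR FDR = 0.346). Cdt1 (chr8:123294754-123300293), which loads the helicase onto origins, went the other way with MBV. It stood at 2.50, 2.05 and 2.20 CPM in PBS, 3.21, 2.50 and 2.54 CPM with fluvastatin and 4.60, 3.47 and 3.04 CPM with MBV, with a log2 fold change of 0.71 ± 0.20 for MBV (edgeR FDR = 0.0272) and 0.29 ± 0.18 for fluvastatin (edgeR FDR = 0.309). The Cdt1 call with MBV was lost in 4 of 12 alternative fits. Cdc6, the other loading factor, had non-overlapping groups with MBV at a log2 value of 0.57 ± 0.25 and did not pass the test (edgeR FDR = 0.125). With fluvastatin it went the other way, at -0.23 ± 0.28 (edgeR FDR = 0.607), with all 3 libraries below PBS. The 5 other MCM genes had log2 values of -0.50 to -0.03 with MBV and -0.38 to -0.01 with fluvastatin, and none of them was called. Cdc45, which joins the firing helicase, had values of -0.44 ± 0.21 and 0.10 ± 0.18.

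Among the DNA synthesis genes, the 2 most abundant were slightly and evenly lower. Pcna (chr2:132091082-132095234), the sliding clamp of the polymerases, measured 53.9, 54.0 and 54.3 CPM in PBS, 46.4, 45.3 and 46.0 CPM with fluvastatin and 46.3, 44.8 and 48.7 CPM with MBV. Every treated library lay below every PBS library. The log2 fold change was -0.24 ± 0.05 with fluvastatin (1.18-fold lower, edgeR FDR = 0.00675) and -0.22 ± 0.05 with MBV (1.17-fold lower, edgeR FDR = 0.0107), and both calls held in all 12 alternative fits. Rrm1 (chr7:102090902-102118978), the large subunit of ribonucleotide reductase, measured 41.5, 41.4 and 41.1 CPM in PBS, 38.97, 37.91 and 37.78 CPM with fluvastatin and 36.9, 35.4 and 37.4 CPM with MBV. The groups again did not overlap, with a log2 fold change of -0.19 ± 0.05 for MBV (edgeR FDR = 0.0223, lost in 5 of 12 alternative fits) and -0.11 ± 0.05 for fluvastatin (edgeR FDR = 0.132). Rrm2, the small subunit that is made in S phase, was at 0.266 to 0.639 CPM in all 9 libraries with no separation of the groups. Thymidylate synthase (Tyms) had log2 values of -0.18 ± 0.13 and -0.03 ± 0.09. Thymidine kinase 1 (Tk1) was above PBS in all 3 MBV libraries, at 0.57 ± 0.21 on the log2 scale, without passing the test (edgeR FDR = 0.0798).

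With all libraries, the genes of G2 and mitosis were not called in any comparison. Cdk1 (chr10:69170976-69188768), the kinase that starts mitosis, measured 0.487, 0.307 and 0.266 CPM in PBS, 0.577, 0.411 and 0.339 CPM with fluvastatin and 0.365, 0.639 and 0.257 CPM with MBV. The groups overlapped, and at a mean of 10.3 counts per PBS library the log2 values of 0.31 ± 0.42 with fluvastatin and 0.21 ± 0.46 with MBV were smaller than 1 SE, so no change was detectable at this depth. The B cyclins Ccnb1 and Ccnb2 had log2 values of -0.01 to 0.28. Ccna2, the cyclin of S and G2 phase, was at 27.0, 28.9 and 26.4 CPM in PBS and at 28.8, 19.8 and 18.9 CPM with fluvastatin, where replicate 1 again lay apart from the other two. Its log2 fold change was -0.29 ± 0.14 (edgeR FDR = 0.165), and its opposite-strand partner Exosc9 stood at 16.6 to 18.6 CPM with fluvastatin and 17.5 to 18.0 CPM in PBS. Without fluvastatin replicate 1, Ccna2 was called lower, at -0.51 ± 0.07 (edgeR FDR = 0.000403), and without PBS replicate 2, Cenpe was called higher with fluvastatin, at 0.46 ± 0.12 (edgeR FDR = 0.0364). Of the 12 mitotic kinase, spindle and checkpoint genes, 9 lay above 0 with fluvastatin (range -0.31 to 0.50) and 8 with MBV (range -0.34 to 0.60). Plk1, the Polo-like kinase, was above every PBS library in the 3 MBV libraries (0.54 ± 0.20, edgeR FDR = 0.0832) and in the 3 fluvastatin libraries (0.26 ± 0.21, edgeR FDR = 0.427). Aurka, an Aurora kinase of the spindle poles, lay above PBS with fluvastatin (0.50 ± 0.24) and had a value of -0.26 ± 0.26 with MBV, and neither passed the test.

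Of the markers used to see cycling cells, Mki67 passed the test with MBV. Mki67 (chr7:135291513-135318090), the Ki-67 gene, measured 3.28, 2.69 and 3.31 CPM in PBS, 3.91, 4.60 and 3.01 CPM with fluvastatin and 5.08, 4.20 and 3.94 CPM with MBV. The MBV libraries lay above all 3 PBS libraries, and fluvastatin replicate 3 lay within the PBS range. The log2 fold change was 0.50 ± 0.16 with MBV (1.42-fold, edgeR FDR = 0.0461) and 0.32 ± 0.18 with fluvastatin (edgeR FDR = 0.261). The MBV call was near the threshold and was lost in 9 of 12 alternative fits, with log2 values of 0.38 to 0.58. Without MBV replicate 1 the log2 value was 0.38 (edgeR FDR = 0.160), and without MBV replicate 2 it was 0.54 (edgeR FDR = 0.0736). Without MBV replicate 3 it was 0.58 (edgeR FDR = 0.0211). Top2a (chr11:98883769-98915015), the topoisomerase of dividing cells, measured 2.27, 1.19 and 1.67 CPM in PBS, 1.94, 2.06 and 1.36 CPM with fluvastatin and 2.30, 2.06 and 2.48 CPM with MBV. Its PBS values alone spread nearly as far as the groups did, and the log2 values were 0.06 ± 0.27 and 0.40 ± 0.25, neither past the threshold.

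**Figure D4:**
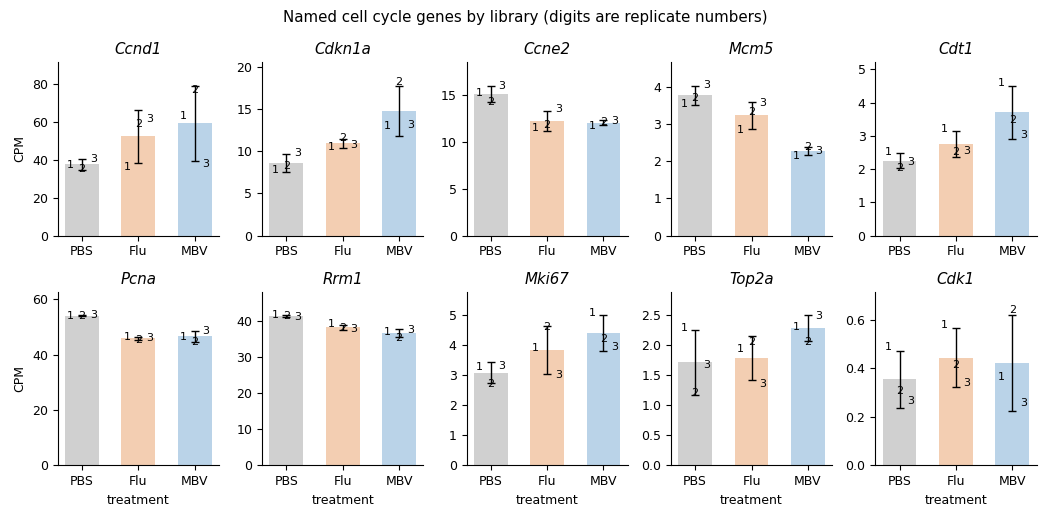
CPM of 10 cell cycle genes by treatment (Flu, fluvastatin), with means as bars, SD as error bars (n = 3) and each library marked by its replicate digit. Every treated library lies below PBS for Pcna and Ccne2, the 3 groups separate for Cdkn1a, and Top2a and Cdk1 overlap across groups.

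Other genes of the same processes, in 4 lists that hold none of the 40, were called at 14.3% to 31.2% with fluvastatin and 21.4% to 26.7% with MBV, against 19.6% and 26.1% of all genes. Of 28 further replication genes, 2 rose and 2 fell with fluvastatin and none rose and 6 fell with MBV. DNA ligase 1 (Lig1, 0.42 ± 0.08) and the maintenance methyltransferase Dnmt1 (0.23 ± 0.04) rose with fluvastatin on the log2 scale, while the polymerase subunit Pola1 (-0.35 ± 0.06) and the histone mRNA binder Slbp (-0.31 ± 0.08) fell. With MBV the flap endonuclease Fen1 (-0.35 ± 0.06), Dut (-0.31 ± 0.07), Slbp (-0.39 ± 0.09) and Pola1 (-0.24 ± 0.06) were among those that fell, with Rfc3 and Tipin. The list's median log2 value was -0.18 with fluvastatin and -0.22 with MBV, with 19 of 28 genes below 0 each time.

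Of 30 further mitosis genes, 1 rose and 4 fell with fluvastatin, and 2 rose and 6 fell with MBV. The chromosome motor Kif4 measured 8.12, 8.02 and 9.08 CPM in PBS, 3.01, 4.97 and 4.28 CPM with fluvastatin and 4.09, 3.56 and 3.76 CPM with MBV, so that no treated library came near PBS. Its log2 fold change was -1.04 ± 0.16 with fluvastatin and -1.15 ± 0.11 with MBV, larger in size than that of any of the 40 genes in the same comparisons. The kinetochore scaffold Knl1 (-0.80 ± 0.16 and -1.14 ± 0.13) and the cytokinesis genes Ect2 (-0.85 ± 0.23 and -1.20 ± 0.27) and Anln (-0.76 ± 0.20 and -0.68 ± 0.21) also fell in both comparisons, which share the PBS libraries. With MBV the kinetochore gene Spc25 fell by 1.02 ± 0.26, and Ccnf (0.52 ± 0.14) and Cdca3 (0.64 ± 0.18) rose. The list's median was -0.12 with fluvastatin and 0.01 with MBV. This list was chosen with earlier results of these data known, and the paper's top MBV genes include Kif4, Knl1, Ect2 and Spc25.

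Of 21 further G1 regulators, 2 rose and 2 fell with fluvastatin, and 3 of the 20 tested rose and 2 fell with MBV. Cdk6, the partner of cyclin D1, rose with fluvastatin (0.28 ± 0.07) and with MBV (0.35 ± 0.09), as did the repressive E2f4 (0.21 ± 0.06 and 0.28 ± 0.06), and Cdk4 rose with MBV (0.20 ± 0.06). Cyclin D2 (Ccnd2, -0.73 ± 0.17) fell with MBV, and E2f5 (-0.42 ± 0.08) and Rb1 (-0.19 ± 0.05) fell with fluvastatin. Of 16 p53 targets that can rise with Cdkn1a in damaged cells, 1 rose and 4 fell with fluvastatin, and 2 rose and 2 fell with MBV. Plk2 rose in both (0.30 ± 0.08 and 0.35 ± 0.08) and Zmat3 rose with MBV (0.19 ± 0.06), while Ccng1 fell in both (-0.32 ± 0.04 and -0.38 ± 0.05), as did Ei24 (-0.15 ± 0.05 and -0.32 ± 0.05). No gene of these 4 lists was called between MBV and fluvastatin by edgeR.

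For the combined treatment, the authors' tables give in each comparison with PBS the higher of the 2 group means, in RPKM. The PBS mean is the same number in all 3 tables, so it cannot exceed the value in the fluvastatin table or in the MBV table, and where the combined table holds a larger value, that value is the mean of the combined group. The ratio is then a lowest fold over PBS, and it is the fold itself where the other 2 tables agree. It carries no replicates and no test, and this RPKM scale must not be set against the CPM values above. The combined group lay above PBS for 28 of the 40 genes (70.0%), against 47.5% of the 15525 genes that reached 10 counts in 2 libraries or more, a filter that all 40 passed. It lay at least 1.2-fold above PBS for 13 of the 40 (32.5%), against 6.48% of these genes. Among genes with a mean PBS count under 100, these shares were 42.1% and 20%, and for the 26 cell cycle genes of that depth 76.9% and 46.2%. Of the further lists, 42.9% of the other replication genes lay above PBS and 7.14% at least 1.2-fold, 60% and 16.7% of the other mitosis genes, 61.9% and none of the other G1 regulators, and 62.5% and 12.5% of the p53 targets.

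Since many of these ratios are lower bounds, they give no order between genes or roles. The lowest possible fold was 1.93 for Cdk1 and 1.76 for the spindle gene Hmmr, both with about 10 counts or fewer per PBS library. It was 1.35 for Top2a, 1.32 for the survivin gene Birc5, 1.25 for Ube2c and 1.2 for Mki67, and the fold was 1.32 for Ccnb2 and 1.23 for the spindle kinesin Kif11, where the PBS value is known. Among the genes of mitosis it was also 1.01 for Tpx2, 1.07 for Kif20a and 1.09 for Bub1b. Of the genes that act in G1 and S phase, Cdc6 had a lowest fold of 1.36 and E2f1 of 1.31, while the folds of Pcna, Rrm1, Mcm6 and Mcm7 were 1.05 each and that of Mcm5 was 1.02. Of the genes called lower with MBV given alone, Pcna, Mcm5 and Rrm1 were thus not below PBS in the combined group's mean. Ccne2, also among them, was not above it. The combined group is in the library set of PBS, and MBV alone is in the other set. The means carry no test, so they show no difference between MBV alone and the combination. The combined group was not above PBS for Ccne1, Ccne2, Mcm2, Rrm2, Tyms, Ccna2 and Aurkb, and the order could not be settled for Ccnd1, Cdkn1a, Foxm1, Tk1 and Plk1. Monocyte and macrophage markers were above PBS in the same group for 8 of 8 genes, with a median lowest fold of 3.00, and microglia markers for 6 of 8, with a median of 1.25. Neutrophil markers were above PBS for 5 of 6 genes (median lowest fold 1.83), lens markers for 3 of 5 (3.18), surface epithelium markers for 3 of 4 (1.59) and Müller glia markers for 2 of 6 (1.25), while no pigment cell marker and no rod, cone or bipolar marker was. Endothelial markers were above PBS for 3 of 6 genes and ganglion cell markers for 2 of 5, and the order could not be settled for the 3 erythroid markers. Their part in the cell cycle values was not tested.

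**Figure D5:**
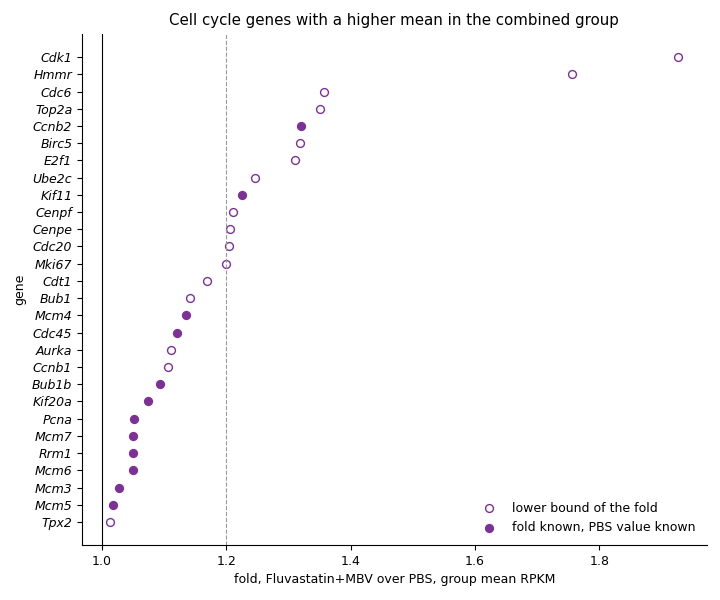
Ratio of the combined group's mean RPKM to that of PBS for the 28 cell cycle genes whose combined mean was the higher, from the authors' group values (open points, lowest possible fold; filled points, fold with the PBS value known). Cdk1 and Hmmr lie furthest right at 1.93 and 1.76, and the dashed line marks 1.2-fold.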

How the data were processed

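Whole retinas of 4 groups of 3 samples were profiled by the authors 2 days after ONC from total RNA, with reads aligned to GRCm39 and counted in CLC Genomics Workbench. The authors deposited raw counts per gene (25655 genes, 4 tables of 2 groups), a group mean in RPKM (the higher of the 2 groups), and their own fold changes and p-values, which were not used. The 6 count columns that name no library were used in no step, so the tests of the combined treatment and of the main effects over 4 groups were not made. Counts were tested with edgeR 4.0.16 (TMM, glmQLFit and glmQLFTest, two-sided, genes with at least 1 count in at least 1 library, 2 groups of 3 per fit), with Benjamini-Hochberg adjustment over all genes and an FDR under 0.05. The replicate CV was 7.78% to 10.1%, and depth was 21349516 to 30992040 counts per library, so genes under 100 counts are imprecise. The labels do not say whether samples came from separate mice, so p-values measure the spread between these samples. In simulated counts for fluvastatin against PBS, 80.0% of genes changed 1.5-fold and 97.5% of those changed 2-fold were recovered. The simulation gave every gene the same dispersion and changed no gene with few counts. These shares therefore say nothing of the cell cycle genes with the fewest counts. CPM values use TMM-scaled totals, and exon lengths and overlaps come from GENCODE vM39 (GRCm39). The 40 genes, the 4 further gene lists and the cell type markers were chosen with earlier results of these data known. Named with every library were Mki67, Top2a, Cdk1, Pcna, Ccnd1, Cdkn1a and the called members with the smallest FDR, at most 6 per comparison. From the other lists, called genes with the smallest FDR were named, with Ccna2, Rfc3, Tipin, Cdca3, Ccnf, Zmat3 and Cdk4 added after their values were seen. Vim and Glul were named outside this rule. Promoter windows came from RefSeq (GRCm38.p6). DESeq2 1.42.0 and the other alternatives are given in the closing section.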

Additional observations from a re-analysis of the deposited data

How the results depend on the processing

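The direction of Pcna, Ccne2, Cdkn1a, Mcm5, Cdt1, Rrm1 and Mki67 in the comparisons with PBS where they were called held in all alternatives, and of the 276 single-gene values under alternatives 225 kept their direction and side of the threshold. With fluvastatin the number of cell cycle genes called (3) ran from 1 to 4 on leaving out each replicate, falling to 1 (Pcna) without PBS replicate 1 or fluvastatin replicate 2. It was 0 with a fold of at least 2 and 1 among genes that share no exon sequence with another gene, an alternative chosen after seeing the data. With MBV (8) it ran from 4 to 8 on leaving out a replicate, and was 0 with a fold of at least 2 and 5 without shared exon sequence. Same-numbered samples were not shown to be paired, since the correlation of their deviations from the group means was -0.02 to 0.16 for fluvastatin and PBS, -0.01 to 0.03 for MBV and PBS and -0.38 to 0.02 for MBV and fluvastatin, and with the replicate number as a block the counts were 4, 5 and 0. Between MBV and fluvastatin the count was 0 in every alternative. The direction turned on leaving out a replicate for genes that were not called. Top2a with fluvastatin ranged from -0.15 to 0.32, Cdk1 with MBV from -0.19 to 0.52, and, between MBV and fluvastatin, Ccnd1 from -0.053 to 0.42, Cdk1 from -0.49 to 0.16 and Pcna from -0.010 to 0.050. Over all genes the calls fell from 3687 to 1726 without PBS replicate 1 (fluvastatin) and from 4937 to 2711 (MBV), and between MBV and fluvastatin they were 11 by edgeR, 122 by DESeq2 and 197 without MBV replicate 3. The causes were not tested. The tests planned for the combined treatment and the main effects were not run, since its count columns name no library. Depth limits the genes with few counts most: with fluvastatin, 1 SE of Cdk1, Bub1, Hmmr, Ube2c and Aurkb was 0.42 to 0.65 on the log2 scale. It was 0.44 for the S-phase gene Rrm2, and only 0.09 for the mitotic gene Bub1b.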
